A study of Mus musculus with 16 samples.

Results

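The RNA of 9 immediate early genes was compared across subcutaneous mouse liver tumours: Fos, Fosb and Fosl2 of the FOS family, Jun and Junb of the JUN family, the transcription factor genes Egr1 and Nr4a1, Ier2, and the phosphatase gene Dusp1. They were taken by symbol from a table of 17097 genes on 16 arrays, 1 array per tumour, and all 9 were measured. Fosl2 and Jun each had a second probe set, and the brighter one on average stood for the gene. All tumours grew from Hepa1-6 cells, a mouse hepatoma line, placed in Matrigel (50%) in the flank of male C57BL/6 mice aged 5 weeks, and treatment began at 200 to 300 cubic mm. Placebo mice (n = 4) were injected with hamster IgG and AntiPD1 mice (n = 3) with the hamster anti-PD1 antibody J43, both at 10 mg/kg in 5 doses, 1 every 3 days. Cabozantinib mice (n = 5) received that multikinase inhibitor by mouth at 30 mg/kg each day, and Combination mice (n = 4) received both drugs. The labels do not mention IgG for the Cabozantinib group. Tumours were collected on day 14, and hold cells of a single line and of the host, under the skin rather than in the liver. Of 12 liver genes, 11 exceeded the lowest median of any array, 4.92 on the log2 scale of array signals, in all 16 tumours. Alb and Afp read 12.84 to 13.20 and 12.41 to 12.78, while Apob and Serpina1a read 4.94 to 6.74 and 4.55 to 8.24. How soon each tumour was frozen after the cull is not stated.

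AP-1 is a transcription factor made of a pair of proteins, often 1 from the FOS and 1 from the JUN family, that binds short DNA sites near many genes of growth, wound repair and inflammation. The genes of its subunits belong to the immediate early genes, which cells transcribe within minutes of a growth factor, cytokine or stress signal without making new protein first. ERK and other MAP kinases drive that transcription and DUSP1 removes phosphate from those kinases. In liver, Jun and Fos are known from regeneration after injury and from tumour growth. The array measures RNA only, and in a whole tumour a change in the share of a cell type cannot be told apart from a change of RNA per cell.

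Fos, Jun and Dusp1 rose in tumours given both drugs, and Ier2, Egr1, Junb, Fosb, Fosl2 and Nr4a1 did not pass the test there. Each of the 3 was higher in 4 of 4 Combination tumours than in every Placebo tumour. In Combination against Placebo 3 of 9 genes rose and 0 fell (limma, Benjamini-Hochberg adjusted p under 0.05 over all 17097 genes), where 10.4% of all genes were called, 3.71% as higher and 6.64% as lower. An unadjusted p under 0.05 was reached by 6 of 9, against 29.2% of all genes. The groups did not overlap for 4 of 9 genes, 3 higher and 1 lower, against 20.9% of all genes, 7.94% higher and 12.9% lower. The median log2 difference of the 9 was 0.41, beside -0.02 for all genes. Against Placebo, 0 of 9 passed in Cabozantinib and 0 of 9 in AntiPD1, where 0.257% and 0.0292% of all genes were called by limma; at an unadjusted p under 0.05 the counts were 3 and 4 of 9, against 13.0% and 19.2% of all genes. The groups did not overlap for 1 of 9 in Cabozantinib, Dusp1, which was higher, against 4.51% of all genes, 1.97% higher. In AntiPD1 they did not overlap for 3 of 9, Fos and Jun higher and Ier2 lower, against 21.5% of all genes.

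**Figure D1:**
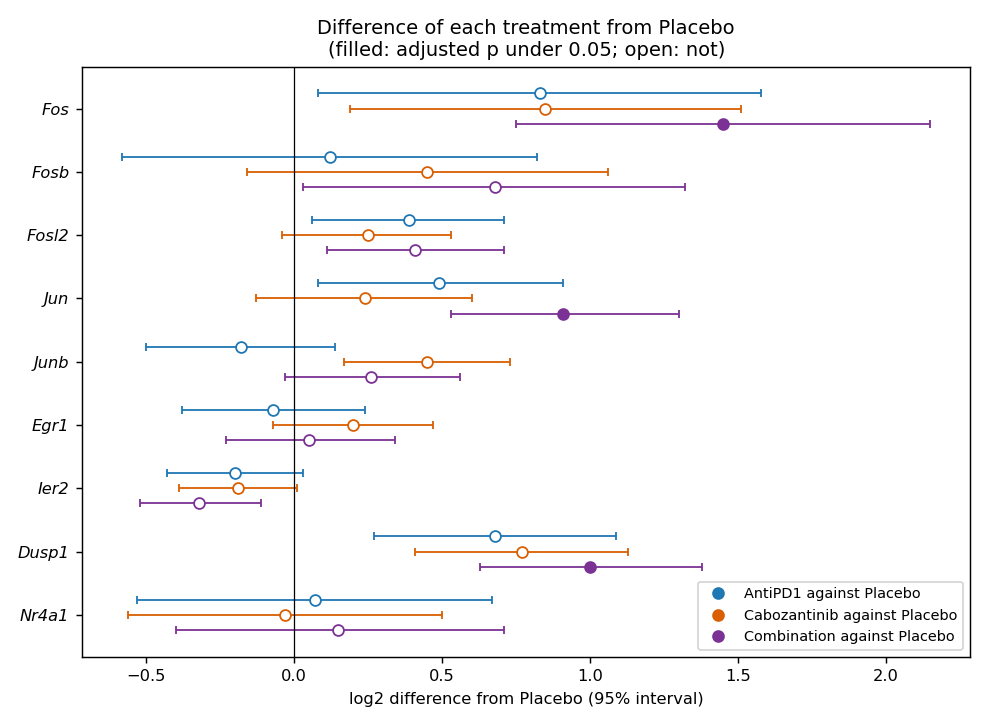
Log2 difference of each treated group from Placebo for the 9 genes, with the 95% interval of the fit across all 16 tumours; filled points passed the adjusted p threshold of 0.05. Fos, Jun and Dusp1 in Combination are the filled points, at 1.45, 0.91 and 1.0, and all 3 groups share the same 4 Placebo tumours.

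The DNA just upstream of the starts of these 3 genes is shown so that the regulatory sequence stands beside the values. Junb, called in other comparisons but in none of a single group against Placebo, is shown too. RefSeq promoter windows (build GRCm38.p6) were found for 7 of the 9 genes, and the 250 bases before the start are printed 5′ to 3′ on the strand of the gene. Fos lies at chr12:85473640-85473889 (plus strand), Jun at chr4:95052223-95052472 (minus strand), Dusp1 at chr17:26508473-26508722 (minus strand) and Junb at chr8:84978749-84978998 (minus strand). Capitals mark the cAMP response element (CRE, TGACGTCA) and its 5-base core TGACG, the site of CREB and ATF proteins.
Fos: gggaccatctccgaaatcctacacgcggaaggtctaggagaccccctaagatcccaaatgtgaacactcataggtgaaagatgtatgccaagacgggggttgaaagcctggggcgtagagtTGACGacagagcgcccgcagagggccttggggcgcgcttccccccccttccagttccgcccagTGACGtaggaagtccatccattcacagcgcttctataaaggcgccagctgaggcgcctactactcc
Jun: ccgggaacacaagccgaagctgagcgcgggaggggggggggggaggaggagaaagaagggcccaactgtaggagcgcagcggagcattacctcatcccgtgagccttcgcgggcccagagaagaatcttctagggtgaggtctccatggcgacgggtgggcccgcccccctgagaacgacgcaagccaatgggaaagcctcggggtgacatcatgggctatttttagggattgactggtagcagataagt
Dusp1: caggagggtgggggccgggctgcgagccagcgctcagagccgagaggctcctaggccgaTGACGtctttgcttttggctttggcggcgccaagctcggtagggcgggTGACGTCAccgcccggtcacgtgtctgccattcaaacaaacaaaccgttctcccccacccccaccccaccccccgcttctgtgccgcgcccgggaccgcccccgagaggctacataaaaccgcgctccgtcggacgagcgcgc
Junb: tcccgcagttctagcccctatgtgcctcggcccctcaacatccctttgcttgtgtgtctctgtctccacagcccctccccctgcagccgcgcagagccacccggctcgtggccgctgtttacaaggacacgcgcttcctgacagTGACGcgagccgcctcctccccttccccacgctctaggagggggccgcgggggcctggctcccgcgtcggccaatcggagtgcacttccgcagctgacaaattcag

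The full CRE was found in the Dusp1 window, from 143 bases before the start, and in 1.79% of all 32851 windows of the same length. The windows searched also held bases after the start, which are not printed. The core alone, which the full CRE holds on both strands, was present 2 times in the Fos window, at 129 and 66 bases before the start, and once in the Junb window, at 106 bases. The Dusp1 window held another core outside its full CRE, at 191 bases. The core was also present in the windows of Fosb and Nr4a1, and in 20.8% of all windows. The EGR site was found in the windows of Fosb, Fosl2 and Nr4a1, each time as GCGGGGGCG on one of the strands. The EGR pattern searched was in 5.55% of all windows, a share that need not be of this exact sequence alone. The CArG box, bound by serum response factor, and the AP-1 site TGANTCA were in none of the 7 windows, against 1.63% and 7.81% of all windows. The Jun window held none of the motifs searched. Both strands were searched, the search of the core was added after values had been seen, and a match or its lack says nothing here of what bound there.

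Fos, the FOS family member that pairs with JUN proteins soon after a stimulus, varied most of the 9 genes. Its log2 signal was 9.88, 8.65, 8.97 and 9.67 in the Placebo tumours and 10.44, 11.03, 10.59 and 10.91 in the Combination tumours. The highest Placebo tumour therefore lay under the lowest Combination tumour, and Placebo tumours 2 and 3 were the lowest of all 16. The difference of 1.45 ± 0.33 (SE) was 2.73-fold, with a 95% interval of 0.75 to 2.15 and limma adjusted p = 0.0209. AntiPD1 tumours read 9.90, 10.16 and 10.31, all above every Placebo tumour, and Cabozantinib tumours 10.20, 9.84, 11.08, 10.31 and 9.29. Cabozantinib thus held both the highest tumour of the 16 and 1 below 2 of the Placebo tumours. Neither single drug passed against Placebo, at 0.83 ± 0.35 (adjusted p = 0.228) for AntiPD1 and 0.85 ± 0.31 (adjusted p = 0.265) for Cabozantinib. The SD of Fos over the 16 tumours, 0.70, exceeded that of 92.7% of the 10548 genes with a mean above 4.92, the lowest array median.

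Fosl2, which encodes FRA2, a FOS family protein of slower and longer expression, differed little. It read 9.68, 9.05, 9.47 and 9.27 in Placebo, 9.67, 9.94 and 9.66 in AntiPD1, 9.47, 9.45, 9.74, 9.94 and 9.46 in Cabozantinib, and 9.59, 9.90, 9.76 and 9.86 in Combination. Placebo tumour 1 overlapped every treated group. Combination differed from Placebo by 0.41 ± 0.14 (limma adjusted p = 0.0731). The second Fosl2 probe set gave 0.11 ± 0.14 for the same difference, and for AntiPD1 against Placebo it gave -0.21 ± 0.15 where the first gave 0.39 ± 0.15, so the probe sets did not share a direction there.

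Fosb, a FOS family gene best known from neurons, was close to background. All 4 of its group means lay under 4.92, and 4 of 16 tumours exceeded that level, Cabozantinib tumours 1 and 3 at 4.96 and 5.22 and Combination tumours 2 and 3 at 5.89 and 5.00. The other 12 lay between 4.09 and 4.38. Combination tumour 2 was thus the only one far above the rest, and background limits the size of any Fosb difference. Combination differed from Placebo by 0.68 ± 0.30 (limma adjusted p = 0.152).

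Jun, the JUN family member that activates transcription most strongly, was highest in Combination. Placebo tumours read 9.15, 8.86, 8.71 and 9.0, and Combination tumours 9.56, 10.06, 9.81 and 9.94. The groups were separate, and the rise of 0.91 ± 0.18 was 1.88-fold (95% interval 0.53 to 1.30, limma adjusted p = 0.015). The second Jun probe set rose by 1.13 ± 0.21 (limma adjusted p = 0.0179 over all 45037 probe sets). In AntiPD1 the values were 9.25, 9.53 and 9.49, each above every Placebo tumour but without a call (0.49 ± 0.19, adjusted p = 0.199). In Cabozantinib they were 8.99, 8.87, 9.79, 9.27 and 8.92, and only tumours 3 and 4 passed the highest Placebo tumour (0.24 ± 0.17, adjusted p = 0.613). Combination against Cabozantinib differed by 0.68 ± 0.17 (adjusted p = 0.0763), where 1 of 17097 genes, or 0.00585%, was called. Without Cabozantinib tumour 3, the tumour of that group highest in Jun, the number called was 1955 and Jun passed (adjusted p = 0.0125), so 1 tumour decided that count. Jun also passed there with array weights (adjusted p = 0.0277) and with the hybridisation or the labelling controls as a covariate (adjusted p = 0.0379 and 0.0325).

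Junb, whose protein can oppose JUN in the cell cycle, had another order of groups, with Cabozantinib highest and AntiPD1 lowest. Cabozantinib tumours read 10.20, 10.25, 9.71, 9.80 and 10.06, and AntiPD1 tumours 9.37, 9.44 and 9.30. All 5 lay above all 3, as for 7.64% of all genes in that direction, and Junb rose by 0.63 ± 0.14 in Cabozantinib against AntiPD1, 1.55-fold (95% interval 0.33 to 0.93, limma adjusted p = 0.0235). It was the only 1 of 9 genes called in that comparison, where 5.43% of all genes were called (2.67% as higher), 457 higher and 471 lower, or 258 higher and 500 lower with each array centred on its median. Placebo tumours read 9.90, 9.41, 9.26 and 9.64 and Combination tumours 9.88, 9.68, 9.83 and 9.87. Placebo tumour 1 lay above 2 Cabozantinib tumours and all Combination tumours, and neither difference from Placebo passed (0.45 ± 0.13, adjusted p = 0.165, and 0.26 ± 0.14, adjusted p = 0.22). The call against AntiPD1 was lost without any 1 of AntiPD1 tumours 1, 2 and 3 or Cabozantinib tumours 1, 2 and 5 (adjusted p up to 0.085), and with only the groups compared in the fit (adjusted p = 0.0768). It was also lost with the monocyte and macrophage list described below as a covariate (0.48 ± 0.16, adjusted p = 0.19), without the 3 tumours richest in skeletal muscle genes (0.72 ± 0.18, adjusted p = 0.0698), and without the 2 richest in adipocyte genes (0.57 ± 0.15, adjusted p = 0.0681).

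Egr1, a zinc finger factor induced by growth factor signals, was not called in any comparison. Its values were 11.55, 11.04, 10.90 and 11.16 in Placebo, 11.16, 11.13 and 10.98 in AntiPD1, 11.53, 11.54, 11.37, 11.05 and 11.34 in Cabozantinib, and 11.11, 11.12, 11.41 and 11.22 in Combination. Placebo alone held both the highest and the lowest of the 16. The interval of Combination against Placebo ran from -0.23 to 0.34, so a rise as large as that of Jun lay outside it.

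Nr4a1, an orphan nuclear receptor gene induced by antigen receptor and growth factor signals, was high in single tumours. Combination tumour 4 read 9.32 and AntiPD1 tumour 2 read 8.88, and the other 14 lay between 7.84 and 8.45. Those 2 tumours were also the highest in skeletal muscle genes. Nr4a1 differed from Placebo by 0.15 ± 0.26 in Combination (limma adjusted p = 0.744), by -0.02 ± 0.17 with the skeletal muscle list as a covariate (adjusted p = 0.946) and by -0.16 ± 0.10 without the 3 tumours richest in muscle genes (adjusted p = 0.336).

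Ier2, an early response gene of unclear function, ran the other way. It read 9.22, 9.26, 9.09 and 9.19 in Placebo, 9.06, 8.89 and 9.02 in AntiPD1, 9.30, 9.02, 8.80, 8.92 and 8.96 in Cabozantinib, and 8.82, 8.96, 9.0 and 8.71 in Combination. All Combination and all AntiPD1 tumours lay below every Placebo tumour, while Cabozantinib tumour 1 was the highest of the 16. The difference of -0.32 ± 0.10 in Combination missed the threshold (limma adjusted p = 0.0533). It passed with dim genes left out, with array weights, with the number in the sample titles as a random block and with only the groups compared (adjusted p = 0.0391, 0.0359, 0.0499 and 0.041), and without Cabozantinib tumour 1 or 3 (adjusted p = 0.0301 and 0.0379).

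Dusp1, which encodes the phosphatase that switches off p38, JNK and ERK kinases, had a higher mean in every treated group than in Placebo. Placebo tumours read 11.43, 10.59, 10.36 and 10.94, and Combination tumours 12.03, 11.75, 11.67 and 11.90. The groups were separate, and Dusp1 rose by 1.0 ± 0.18, 2.01-fold (95% interval 0.63 to 1.38, limma adjusted p = 0.0147). By p value it was in place 55 of the 17097 genes. Cabozantinib tumours read 11.58, 11.46, 11.81, 11.63 and 11.52, all above every Placebo tumour, and the difference of 0.77 ± 0.17 had adjusted p = 0.076. AntiPD1 tumours read 11.62, 11.33 and 11.58, with tumour 2 under Placebo tumour 1 (0.68 ± 0.19, adjusted p = 0.136).

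**Figure D2:**
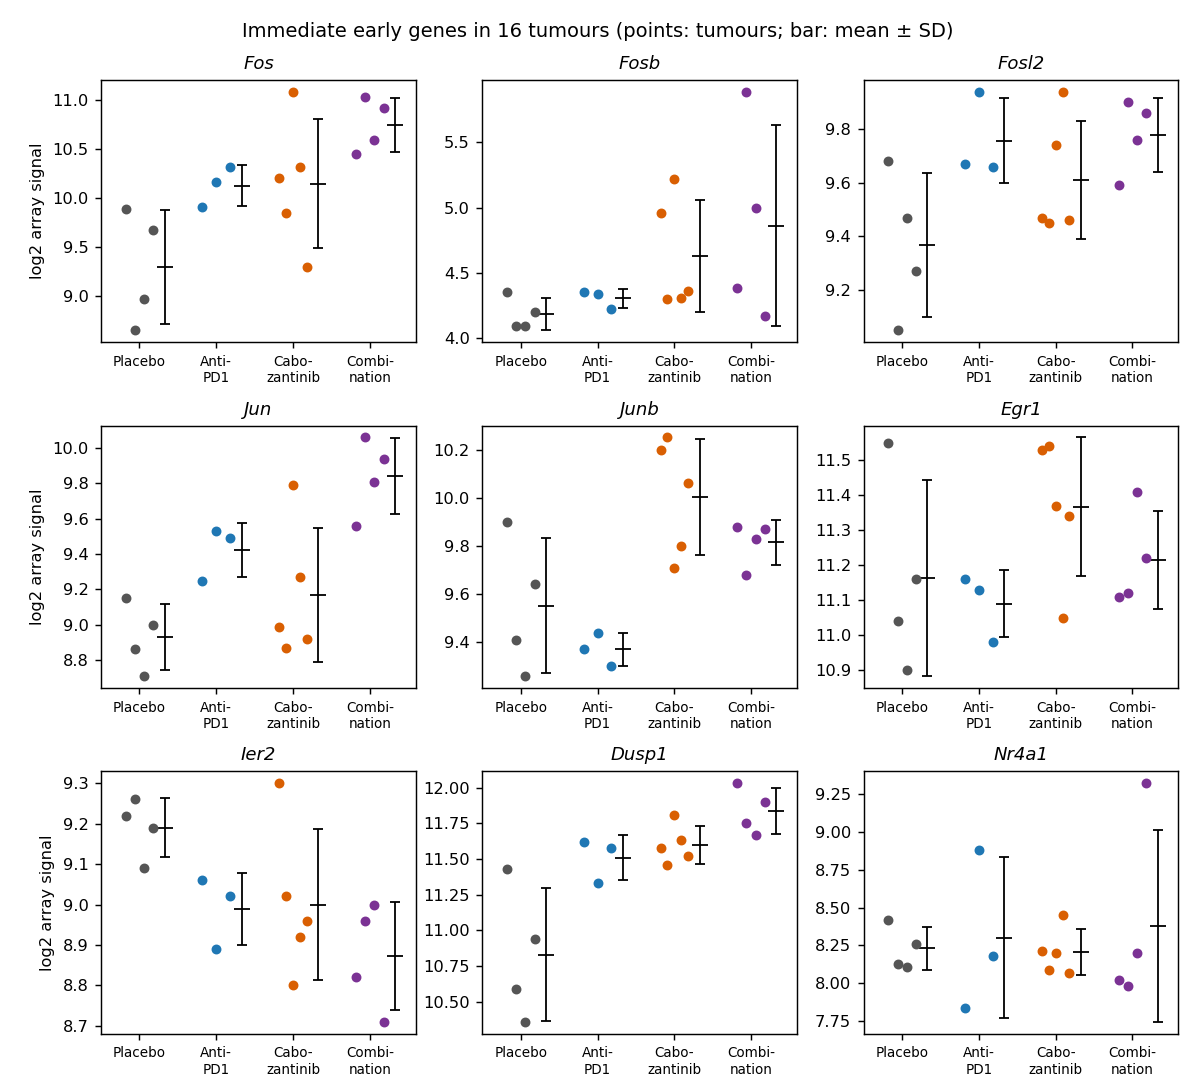
Log2 array signal of the 9 genes in each of the 16 tumours, by group; each point is 1 tumour, the bar gives the group mean and SD, and each panel has its own vertical axis that does not start at 0. Combination and Placebo do not overlap for Fos, Jun, Dusp1 and Ier2, Cabozantinib is highest for Junb, and Nr4a1 is high in single tumours.

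The order of groups was Combination, Cabozantinib, AntiPD1 and Placebo for Fos and Dusp1, and Combination, AntiPD1, Cabozantinib and Placebo for Jun. No neighbours in these orders differed past the threshold, nor did those of Junb. With each drug averaged over the other, Fos was higher with anti-PD1 by 0.72 ± 0.23, Jun by 0.59 ± 0.13 and Dusp1 by 0.46 ± 0.13 (limma adjusted p = 0.0482, 0.0139 and 0.0268), 3 of 9 genes against 8.33% of all genes called as higher. When 1 tumour was left out, Jun kept this call in 16 of 16 fits and Dusp1 in 13, but Fos in 3, with adjusted p up to 0.107. All 10 monocyte and macrophage markers described below rose in this contrast too, and with their list as a covariate the differences were 0.17 ± 0.31 for Fos, 0.24 ± 0.16 for Jun and 0.29 ± 0.19 for Dusp1 (adjusted p = 0.936, 0.765 and 0.765), so all 3 calls were lost. The number of all genes called in this contrast then fell from 3075 to 0, so the covariate removed every call and not those 3 alone. Fos also lost its call for anti-PD1 averaged with the number in the sample titles as a random block (0.69 ± 0.24, adjusted p = 0.0592). Junb was higher with cabozantinib, averaged in the same way, by 0.45 ± 0.10 and Dusp1 by 0.55 ± 0.13 (adjusted p = 0.0322 and 0.0396), 2 of 9 against 0.860% called as higher. These calls held in 6 and 2 of 16 fits with 1 tumour left out (adjusted p up to 0.0982 and 0.0896). Dusp1 was the gene called in both. The interaction, the gap between the response to both drugs and the added responses to each, was called by limma for 0 of 9 genes and 0% of all genes, and 0 of 9 had an unadjusted p under 0.05, against 2.57% of all genes. For Dusp1 it was -0.44 ± 0.25 (95% interval -0.99 to 0.10) and for Jun 0.18 ± 0.26 (-0.36 to 0.73). Any difference among the 4 groups was called for Jun, Junb and Dusp1 (adjusted p = 0.0319, 0.0425 and 0.0231), 3 of 9 against 6.77%. Combination against AntiPD1 gave 0 calls among the 9 by limma, with 2 at an unadjusted p under 0.05, where the shares of all genes were 0.234% and 7.21%. There 4 of 9, Fos, Jun, Junb and Dusp1, were higher without overlap, against 4.25% of all genes. In Combination against Cabozantinib, 0 of 9 were called by limma and 1, Jun, had an unadjusted p under 0.05, against 22.5% of all genes.

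From tumour to tumour Fos varied with Jun and Dusp1, and Junb with Egr1. Fos and Jun had r = 0.89 and rho = 0.92 over the 16 tumours (permutation p = 2e-05 and 1e-05, the latter the smallest possible, adjusted over 36 pairs p = 0.00072 and 0.00018). Without Placebo tumours 2 and 3, the farthest from the median of Fos, r was 0.90, and among deviations from the group means it was 0.85. Tumours high in Fos were thus high in Jun within treatment groups as well. Fos and Dusp1 had r = 0.84 and rho = 0.89 (permutation p = 5e-05 and 1e-05, adjusted p = 0.0009 and 0.00018), 0.66 without the same tumours and 0.59 within groups. Junb and Egr1 formed another pair, with r = 0.81 and rho = 0.76 (permutation p = 0.00026 and 0.00087, adjusted p = 0.00312 and 0.00626), 0.71 without Cabozantinib tumour 2 and Placebo tumour 3 and 0.80 within groups. Jun and Junb had r = -0.04 and rho = 0.01 (permutation p = 0.89 and 0.97, adjusted p = 0.984 and 0.978). Jun and Ier2 ran opposite, with r = -0.67 and rho = -0.67 (permutation p = 0.0052 and 0.00588, adjusted p = 0.0265 both), and -0.38 within groups. Of the 36 pairs, 13 had an adjusted p of r under 0.05.

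**Figure D3:**
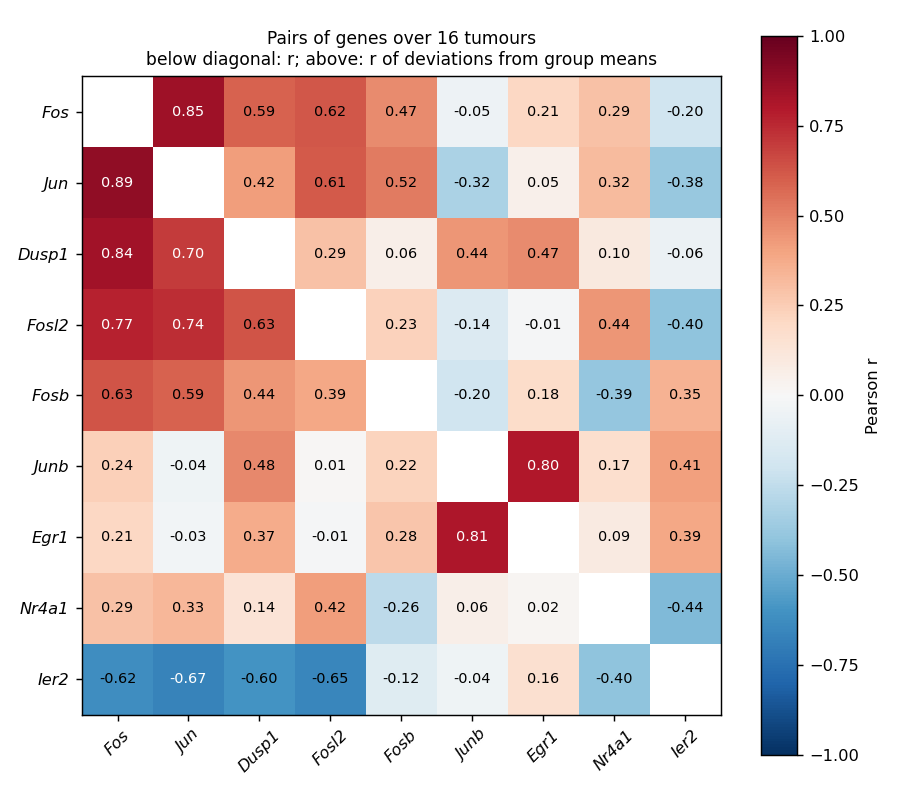
Pearson r for the 36 pairs of genes over 16 tumours, below the diagonal for the log2 signals and above it for deviations from the group means; the colour runs from blue (-1) to red (1). Fos and Jun (0.89 and 0.85) and Junb and Egr1 (0.81 and 0.80) are red on both sides, and the row of Ier2 is blue against Fos and Jun.

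Outside the 9, the genes with the highest r over the 16 tumours among 10540 compared were listed for Fos, Jun, Egr1 and Dusp1, as a description with no test. For Fos they were Pikfyve, a lipid kinase of endosomes (r = 0.882), and Nbl1, Ptpre, Arrdc3 and Psenen (0.876 to 0.880). For Jun they were Pla2g15, a lysosomal phospholipase (r = 0.945), and Adamts15, Mfsd11, Pltp and Hipk3 (0.918 to 0.927). For Egr1 they were Lmo4, a LIM domain factor (r = 0.865), and Itprid2, Cd44, Crim1 and Fbxl17 (0.816 to 0.840). For Dusp1 they were the histone gene H2bc4 (r = 0.87), and Hcar2, Nfkbia, Riok3 and Arrdc3 (0.847 to 0.859). Arrdc3 was in the lists of both Fos and Dusp1.

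Marker genes of other cells moved with the same tumours. The monocyte and macrophage list, 10 genes such as Cd68, Csf1r and C1qa, of which 9 exceeded the lowest array median in all 16 tumours, averaged -0.70 ± 0.64 (SD, n = 4) in Placebo and 0.88 ± 0.33 (SD, n = 4) in Combination, as a mean log2 deviation from each gene's mean. A further 3 of 7 neutrophil genes rose in Combination against Placebo, 4 of 12 liver genes fell, and of 8 endothelial genes 6 fell and 1, Tek, rose. The shares of all genes called there were 3.71% as higher and 6.64% as lower. The summed signal of the monocyte and macrophage list, on the log2 scale, ran from 12.37 to 13.56 in Placebo, 13.88 to 14.32 in AntiPD1, 11.59 to 14.04 in Cabozantinib and 14.12 to 14.69 in Combination, and 5 of its 10 genes rose in Combination against Placebo. Jun followed the list with r = 0.82 and rho = 0.86 (permutation p = 0.0001 each, adjusted over 117 pairs p = 0.0117 each), 0.85 without Cabozantinib tumour 2 and Placebo tumour 2, and 0.64 within groups. Jun followed the fibroblast and matrix list to a like degree, with r = 0.77 and rho = 0.79 (permutation p = 0.0005 and 0.00057, adjusted p = 0.0117 and 0.0222), 0.75 without the same tumours and 0.71 within groups. It also followed the B and plasma cell list with r = 0.74 and rho = 0.74 (permutation p = 0.00123 and 0.0016, adjusted p = 0.0158 and 0.0289), 0.56 without Combination tumours 2 and 4, and the T cell list with r = 0.65 and rho = 0.65 (permutation p = 0.00661 and 0.00746, adjusted p = 0.0481 and 0.0512), 0.60 without Cabozantinib tumours 1 and 2. Of the 4 B and plasma cell genes 0 exceeded the lowest array median in all 16 tumours, beside 5 of 7 fibroblast and 6 of 6 T cell genes. The relation of Jun was thus not particular to monocytes and macrophages, and several lists of host cells moved together with Jun. Against the liver list Jun ran the other way, with r = -0.63 and rho = -0.68 (permutation p = 0.00872 and 0.00482, adjusted p = 0.0512 and 0.0447). There r was -0.49 without Combination tumour 2 and Cabozantinib tumour 5 and -0.42 within groups. Fosl2, by its brighter probe set, followed the monocyte and macrophage list with r = 0.79 and rho = 0.76 (permutation p = 0.0004 and 0.001, adjusted p = 0.0117 and 0.0289), 0.74 without Cabozantinib tumour 2 and Placebo tumour 2. Fos followed it with r = 0.68 and rho = 0.72 (permutation p = 0.00359 and 0.00241, adjusted p = 0.03 and 0.0352), 0.65 without those tumours and 0.54 within groups, and Dusp1 with r = 0.55 and rho = 0.62 (permutation p = 0.0267 and 0.0121, adjusted p = 0.104 and 0.0655), 0.53 and 0.31. Fosl2 also followed the fibroblast and matrix list (r = 0.74, rho = 0.79) and the neutrophil list (0.74, 0.63). The B and plasma cell list (0.73, 0.74) and the T cell list (0.65, 0.63) went the same way. In that order the permutation adjusted p of r was 0.0158, 0.0158, 0.0158 and 0.0481, and of rho 0.0222, 0.064, 0.0289 and 0.0625. All these Fosl2 values are of the brighter probe set alone. The second probe set, which differed from it in direction in AntiPD1 against Placebo, was not compared with the lists. Fos followed the fibroblast and matrix list with r = 0.64 and rho = 0.69 (permutation adjusted p = 0.0512 and 0.0447). With the monocyte and macrophage list as a covariate, an alternative chosen after the data were seen, Fos differed in Combination against Placebo by 0.82 ± 0.39, Jun by 0.51 ± 0.20 and Dusp1 by 0.81 ± 0.24 (limma adjusted p = 0.472, 0.363 and 0.267). The number of all genes called then fell from 1771 to 0, so the covariate removed every call and not those of the 3 genes alone.

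Junb ran against the endothelial list, 8 genes such as Cdh5 and Emcn of which 2 exceeded the lowest array median in all 16 tumours, with r = -0.77 and rho = -0.74 (permutation p = 0.00041 and 0.00169, adjusted p = 0.0117 and 0.0289), -0.74 without AntiPD1 tumours 2 and 3. Within groups r was -0.14, so that relation lay between the groups. The same held for Junb and the red cell list, with r = -0.75 and rho = -0.69 (permutation p = 0.00108 and 0.00356, adjusted p = 0.0158 and 0.0447), -0.66 without AntiPD1 tumours 1 and 3 and -0.05 within groups. It held for the mast cell list as well, with r = -0.65 and rho = -0.67 (permutation p = 0.00699 and 0.00535, adjusted p = 0.0481 and 0.0447), -0.54 without AntiPD1 tumour 2 and Placebo tumour 3 and 0.05 within groups. Of the 5 mast cell genes 0 exceeded the lowest array median in all 16 tumours. The endothelial list was highest in AntiPD1, at 1.45 ± 0.36 (SD, n = 3), and lowest in Cabozantinib, at -0.78 ± 0.27 (SD, n = 5). Nr4a1 and the skeletal muscle list had r = 0.79 but rho = 0.43 (permutation p = 0.00047 and 0.0969, adjusted p = 0.0117 and 0.227), and 0.50 without Combination tumour 4 and AntiPD1 tumour 2, so the relation rested on those tumours. Junb and Egr1 each had r = 0.70 with 6 keratinocyte genes (permutation p = 0.00282 and 0.00264, adjusted p = 0.0254 each), with rho of 0.65 and 0.58 (permutation p = 0.00788 and 0.0201, adjusted p = 0.0512 and 0.0842) and 0.46 and 0.50 without Cabozantinib tumours 1 and 2. Only 2 of the 6 keratinocyte genes exceeded the lowest array median in all 16 tumours, and that list ranged only from -0.16 to 0.18. With the skeletal muscle list as a covariate, Fos, Jun and Dusp1 kept their calls in Combination against Placebo, at 1.38 ± 0.33, 0.86 ± 0.17 and 1.02 ± 0.19 (limma adjusted p = 0.0319, 0.0207 and 0.02), while without the 3 tumours richest in muscle genes Fos, at 1.40 ± 0.39, had adjusted p = 0.0505. The part of the liver, neutrophil, endothelial, red cell, mast cell, keratinocyte, fibroblast, T cell and B cell lists in the signal of the 9 genes was not tested.

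**Figure D4:**
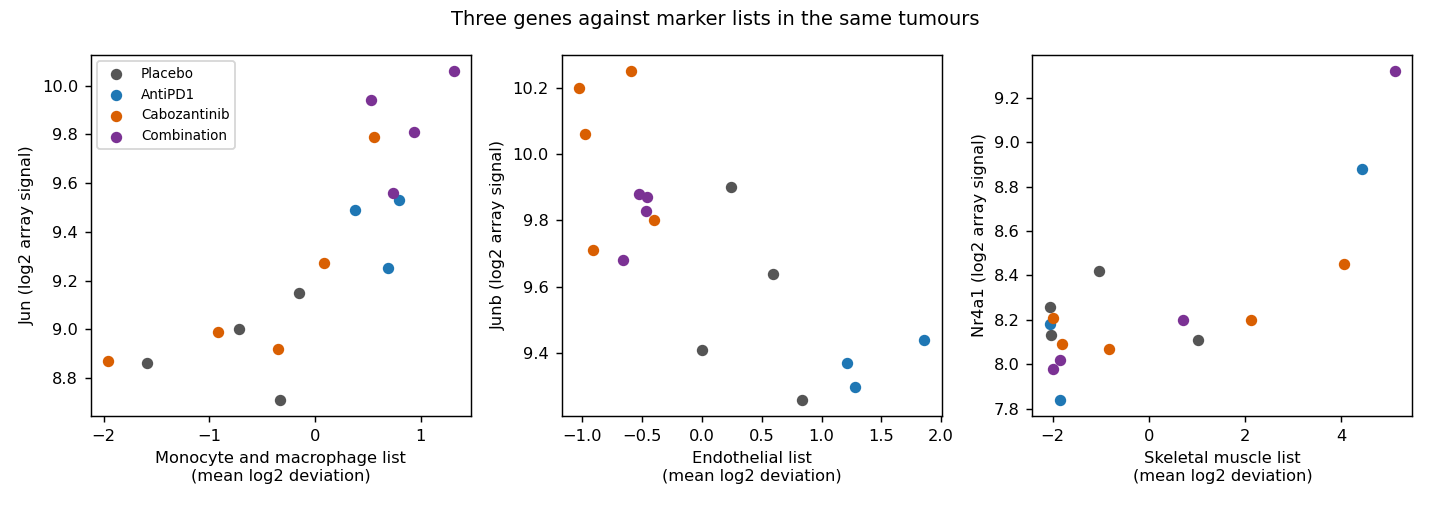
Log2 signal of Jun, Junb and Nr4a1 against the mean log2 deviation of the monocyte and macrophage, endothelial and skeletal muscle lists, each point 1 of 16 tumours coloured by group. Jun rises with the first list (r = 0.82), Junb is high where the endothelial list is low (r = -0.77), and the highest Nr4a1 values belong to the 2 tumours highest in skeletal muscle genes.

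Tissue and array quality were uneven. Skeletal muscle genes were highest in Combination tumour 4, AntiPD1 tumour 2 and Cabozantinib tumour 4, at 5.12, 4.44 and 4.06, with the next tumour at 2.13. Adipocyte genes were highest in Cabozantinib tumour 2 and Combination tumour 1. Placebo tumour 2, the lowest for Fos and Fosl2, had the lowest mean of the labelling controls (7.54, the others 7.76 to 9.40) and the largest gap between the 3′ and 5′ Actb probe sets (0.539), which grows as RNA degrades. The gap was 0.448 ± 0.026 (SD, n = 4) in Combination and 0.490 ± 0.036 (SD, n = 4) in Placebo (two-sided exact permutation p = 0.0857, adjusted p = 0.286). With it as a covariate, also chosen after the data were seen, Fos, Jun and Dusp1 differed in Combination against Placebo by 1.15 ± 0.36, 0.79 ± 0.21 and 0.95 ± 0.21 (limma adjusted p = 0.143, 0.114 and 0.106), and 6 of all genes were called. The calls of all 3 were also lost without Placebo tumour 2, at 1.24, 0.89 and 0.92 (adjusted p = 0.0696, 0.0511 and 0.0504), or without Combination tumour 2, at 1.35, 0.84 and 1.03 (adjusted p = 0.0831, 0.0667 and 0.0518), when 61 and 42 of all genes were called. Without Placebo tumour 3 the call of Fos alone was lost (1.34, adjusted p = 0.0587). The hybridisation controls averaged 10.490 ± 0.289 (SD, n = 5) in the Cabozantinib arrays and 9.859 ± 0.395 (SD, n = 4) in the Placebo arrays (exact permutation p = 0.0317, adjusted p = 0.0794). With them as a covariate Fos differed in Combination against Placebo by 1.24 ± 0.32 (adjusted p = 0.0609), while Jun and Dusp1 kept their calls.

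Other genes of the pathway were followed in lists. In Combination against Placebo, where 3.71% of all genes were called as higher and 6.64% as lower, 1 of 12 other AP-1 family genes rose. This was Atf3, a stress-induced partner of JUN proteins, at 0.83 ± 0.25 (limma adjusted p = 0.0481). Jund, the JUN family member present in most resting cells, differed by 0.48 ± 0.15 (adjusted p = 0.0527). Of 31 other immediate early genes, 9 rose and 0 fell, with a median log2 difference of 0.24 beside -0.02 for all genes. The largest of these rises were Klf2 at 0.89 ± 0.24, a factor of resting T cells and vessel walls, and Ier3 at 0.71 ± 0.16 (adjusted p = 0.036 and 0.0204). Tnfaip3, the A20 inhibitor of NF-kB, rose by 0.63 ± 0.19 and the stress sensor gene Gadd45b by 0.62 ± 0.14 (adjusted p = 0.0488 and 0.0204). The other 5 were Nfkbia, Rhob, Klf6, Mcl1 and Zfp36l1. Ier3 and Gadd45b also rose in Cabozantinib against Placebo, by 0.85 ± 0.15 and 0.73 ± 0.13 (adjusted p = 0.0297 and 0.0324). They were the only 2 of the 31 called there, where 0.111% of all genes were called as higher. In Cabozantinib against AntiPD1, where Junb rose, 3 of the 31 rose: Socs3 by 0.73 ± 0.16, Gadd45b by 0.52 ± 0.14 and Nfkbiz by 0.46 ± 0.12 (adjusted p = 0.0194, 0.0484 and 0.0419). There the AP-1 family gene Maff rose by 0.55 ± 0.13 and Maf fell by 0.74 ± 0.18 (adjusted p = 0.0336 and 0.0298). In that comparison 2.67% of all genes were called as higher and 2.75% as lower.

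Genes that ERK signalling induces and that feed back on it moved in both directions. Of 14 measured, 4 fell and 1 rose in Combination against Placebo, with a median of -0.23. Among all genes 6.64% were called as lower there and 3.71% as higher. Spry1 and Spred2, inhibitors of the RAS to ERK route, fell by 0.85 ± 0.16 and 0.38 ± 0.12 (limma adjusted p = 0.015 and 0.0498), and Phlda1 fell by 0.23 ± 0.07 (adjusted p = 0.0497). The ETS factor gene Etv5 fell by 0.69 ± 0.15 and its relative Etv1 rose by 0.69 ± 0.15 (adjusted p = 0.0203 and 0.0192). Of 16 upstream kinase and transcription factor genes, 0 were called by limma and the median was 0.01. An unadjusted p under 0.05 was reached by 3 of them, against 29.2% of all genes. Of 11 genes known as AP-1 targets, 0 were called and 6 had an unadjusted p under 0.05, against the same 29.2%, with a median of 0.43. The protease genes Plau and Mmp13 were the closest, at 0.43 ± 0.14 and 0.51 ± 0.17 (adjusted p = 0.0604 and 0.0708). Of 7 heat shock genes, 1 fell, Hspe1, by 0.29 ± 0.09 (adjusted p = 0.0478), and Hspa1b differed by 0.40 ± 0.32 (adjusted p = 0.452).

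**Figure D5:**
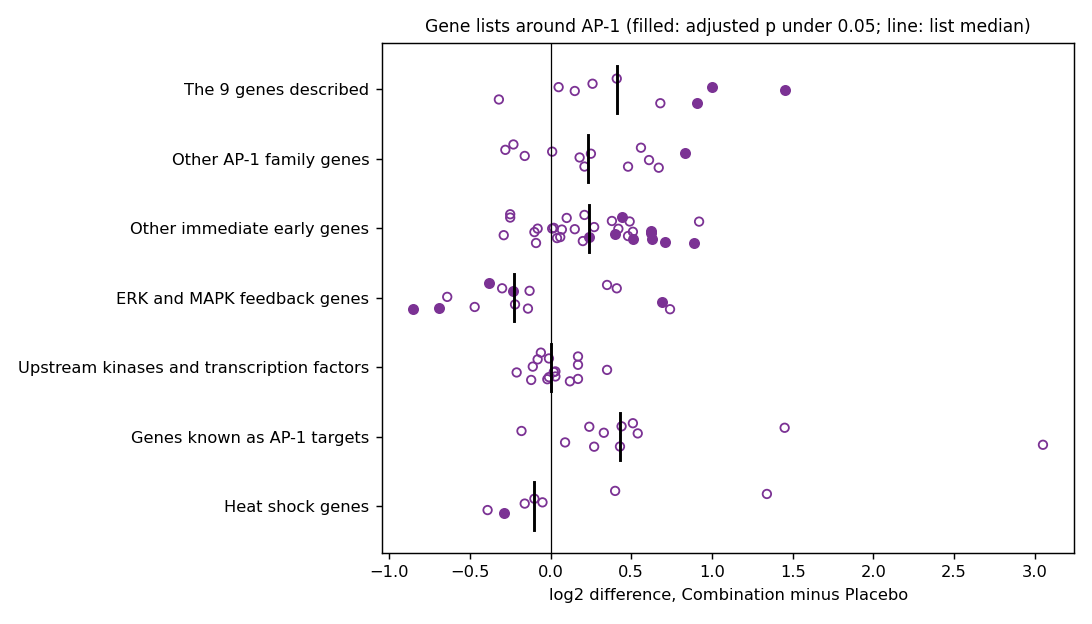
Log2 difference of Combination from Placebo for each measured gene of the 9 described and of 6 lists around AP-1; filled points passed the adjusted p threshold of 0.05 and the black line is the list's median. The medians are 0.41 for the 9 genes, 0.24 for other immediate early genes, -0.23 for ERK and MAPK feedback genes and 0.01 for upstream genes.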

How the data were processed

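Total RNA (50 ng) from each of 16 tumours was hybridised to 1 Affymetrix mouse array, per the labels' protocols. The authors deposited log2 signals per probe set, made with RMA and the R package affy 1.62.0 per the submitters' processing notes. Settings, scan dates and any batch correction are not stated. The values covered 45141 probe sets with 0 missing values. Of these, 28898 were paired with 1 gene, 551 with several and 15588 with none, and 104 were controls. For each of 17097 genes the probe set of highest mean signal was kept, and 7180 genes had several. A log2 signal is not comparable between probe sets, so no gene's level was set against another's. Array medians ran from 4.92 to 5.13, and a group mean under 4.92 was treated as near background. The highest correlation between arrays was 0.995, and no array was a copy of another.

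The comparisons used limma 3.58.1 under R 4.3.3 (lmFit, eBayes), with a model of 4 group means over all 16 arrays with no covariate, with 12 residual and 2.47 prior degrees of freedom. Benjamini-Hochberg adjustment covered all 17097 genes, with a threshold of 0.05. P values measure the spread between tumours, each taken as 1 mouse, and precision is limited by how few arrays a group has. Cabozantinib tumours 2 and 3 share a number in their titles, and whether they came from separate mice is not stated. Correlations used 100000 permutations of tumours, and permutation tests were two-sided. List values are mean log2 deviations from each gene's mean over the 16 tumours. The genes and lists were chosen with earlier results of these data known, so counts describe them and are no independent evidence. Of each list up to 4 genes past the threshold were named, by size of difference, or the 2 with the smallest p where none passed; Jund, Hspa1b, Phlda1 and the 5 further immediate early genes were added after their values were seen. On simulated data for Combination against Placebo, the test recovered 46.3% of 67 genes changed by 0.5, 91% of 67 changed by 1 and 95.5% of 66 changed by 2 on the log2 scale, among 17097 genes, with 12 false calls. The simulation drew each gene independently with normal noise and changed 200 genes in Combination alone. It held no tissue differences shared by many genes, so its rates need not hold for the real tumours. Alternatives covered probe set choice, a filter on dim genes, normalization, empirical Bayes settings, array weights, the title number as a random block, tissue and quality covariates, left-out tumours and the samples fitted.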

Additional observations from a re-analysis of the deposited data

Results flagged for a closer look

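Nr4a1 in Combination tumour 4 stood far from the rest of its group, at a log2 signal of 9.32 against 7.98 to 8.2 in the other 3. Its gap to the nearest tumour was 0.839 of the group's range, above Dixon's 95% value of 0.829. This was 1 of 27 groups of 4 or 5 tumours tested over the 9 genes, and chance alone exceeds that value in about 1 of 20 groups. The same tumour had the highest skeletal muscle list value of the 16, 5.12, and with that list as a covariate Nr4a1 differed between Combination and Placebo by -0.02 ± 0.17 rather than 0.15 ± 0.26.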

How the results depend on the processing

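No paired analysis was possible because the replicate numbers were assigned in accession order and pair no tumours. A number in the sample titles is shared by some tumours of different groups, and by Cabozantinib tumours 2 and 3. Its meaning is not stated, so whether tumours that share it are independent is not known. It was fitted as a random block (correlation -0.103). This added Ier2 in Combination against Placebo (3 to 4 genes), removed Fos from anti-PD1 averaged (3 to 2) and changed no other call among the 9 genes. No called value changed sign under any setting run; sign changes of differences that were not called are not counted as reversals. In Combination against Placebo the count of 3 genes became 5 with array weights (Fosl2 and Ier2 added), and 0 with the monocyte and macrophage covariate or the Actb 3′ minus 5′ covariate. Among all genes the number called there went from 1771 to 3059 with array weights and to 0 with the monocyte and macrophage covariate. In Cabozantinib against Placebo 0 became 1 (Dusp1) with the monocyte and macrophage covariate, and in AntiPD1 against Placebo 0 became 1 (Dusp1) with array weights. Among all genes the number called went at the same time from 44 to 290 and from 5 to 1822. In Combination against Cabozantinib 0 became 1 (Jun) with array weights or with either array control as a covariate. In Cabozantinib against AntiPD1 1 became 0 without the muscle-rich or the adipocyte-rich tumours, with the monocyte and macrophage covariate, and with only the groups compared. Cabozantinib averaged over antibody went from 2 to 0 with arrays centred on their medians, without the muscle-rich or the adipocyte-rich tumours, and with the hybridisation control or Actb covariate, and to 1 with the labelling control covariate. Anti-PD1 averaged over cabozantinib went from 3 to 5 with the hybridisation control covariate, to 1 without the muscle-rich or the adipocyte-rich tumours, and to 0 with the monocyte and macrophage or Actb covariate. The test of any difference among the 4 groups went from 3 to 0 in those 4 settings and to 1 with the Gapdh covariate. The cause of these changes was not tested. The monocyte, Actb, Gapdh and adipocyte settings were chosen after the data were seen.

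Leaving out 1 tumour at a time gave 0 to 4 genes in Combination against Placebo, 0 to 1 in Cabozantinib against Placebo, Combination against Cabozantinib and Cabozantinib against AntiPD1, 0 to 2 for cabozantinib averaged, 1 to 4 for anti-PD1 averaged, 0 to 4 for any difference, and 0 throughout for AntiPD1 against Placebo, Combination against AntiPD1 and the interaction. Jun kept its call for anti-PD1 averaged in 16 of 16 of these fits (adjusted p up to 0.049). Over all 33 settings run besides the one reported the Combination against Placebo difference ran from 0.82 to 1.65 for Fos, 0.51 to 1.13 for Jun and 0.81 to 1.21 for Dusp1, past the threshold in 26, 29 and 29. Among all genes the number called ran from 0 to 3059 in Combination against Placebo (1771 as reported), 149 to 2864 in Cabozantinib against AntiPD1 (928), 0 to 1955 in Combination against Cabozantinib (1), 0 to 1822 in AntiPD1 against Placebo (5), 4 to 290 in Cabozantinib against Placebo (44) and 13 to 155 in Combination against AntiPD1 (40). It ran from 0 to 5037 for anti-PD1 averaged (3075), 131 to 802 for cabozantinib averaged (362), 121 to 4069 for any difference (1157) and 0 to 1 for the interaction (0), so the background shares given beside the counts depend on the setting too. Arrays have no read depth, and all 4 group means of Fosb lay near background.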
